A study of Mus musculus with 9 samples.

Results

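The microRNAs miR-221-3p and miR-222-3p, the main products of 2 neighbouring hairpins on the mouse X chromosome, were followed in small extracellular vesicles of serum. They are 2 of the 1169 microRNAs with a count (1064 known and 105 predicted). They were chosen by name, as a pair that shares a seed and a primary transcript, with earlier results of these data known. Small RNA was sequenced in 9 libraries. The HFD Sirt3 AKI group holds 3 libraries from mice with adipose-specific Sirt3 overexpression on a high fat diet (HFD). The HFD WT group holds 3 libraries from mice labelled wild type on the same diet, and the chow WT group holds 3 libraries from wild-type mice on chow. The series title names male mice. The sources used here do not give age, length of diet, the promoter that drives Sirt3 or any pooling of animals. The library names of HFD WT carry the code SIRT3CKI and those of HFD Sirt3 AKI the code SIRT3CKIcr, while those of chow WT carry WT, so a difference in mouse line cannot be told apart from the diet. HFD Sirt3 AKI replicates 2 and 3 have a batch label of their own, and the other 7 libraries share one.

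Both microRNAs are processed from one primary transcript. They repress the cell cycle inhibitor Cdkn1b and the receptor Kit in growing cells, and act in endothelium and vascular smooth muscle. In adipose tissue they decline as preadipocytes mature and have been reported at higher levels in obesity. Serum vesicles come from many tissues, so fewer vesicles from a tissue and less microRNA per vesicle cannot be told apart here. The libraries were made from a precipitate of serum, and any microRNA in it outside vesicles cannot be told apart either.

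The sequences are shown because the pair is defined by its seed, bases 2 to 8 of the mature strand (capitals), through which a microRNA recognises its targets. They are RefSeq's, on build GRCm38.p6, and matched 3 of the 4 strands described (both 3p strands and miR-221-5p).
mmu-miR-221-3p (chrX:19146307-19146329, minus strand): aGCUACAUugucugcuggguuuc
mmu-miR-222-3p (chrX:19146901-19146923, minus strand): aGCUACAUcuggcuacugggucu
mmu-miR-221-5p (chrX:19146344-19146369, minus strand): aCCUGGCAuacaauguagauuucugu
The first 8 bases of the 3p strands are the same, and 11 of their 23 positions are identical without gaps. The strands therefore differ over most of their 3′ part. The third mouse microRNA in the RefSeq table with this seed, miR-1928, is not among the 1169 microRNAs with a count and could not be analysed.

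The hairpins are shown to place these strands, with the sequenced RefSeq strands in capitals.
Mir221 (chrX:19146294-19146388, minus strand): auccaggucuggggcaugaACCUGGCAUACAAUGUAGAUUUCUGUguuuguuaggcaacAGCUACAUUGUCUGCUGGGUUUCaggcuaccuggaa
Mir222 (chrX:19146893-19146971, minus strand): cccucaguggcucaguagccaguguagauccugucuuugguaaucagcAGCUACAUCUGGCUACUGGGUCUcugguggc
They lie 504 bases apart on the same strand. No other gene of the GENCODE M21 annotation, on the same build, overlaps either hairpin, and the nearest, the noncoding transcript Gm14636, lies 10009 bases from Mir222 on that strand.

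Libraries held 1729416 to 2973432 counts in HFD Sirt3 AKI, 1953935 to 2162009 in HFD WT and 225002 to 306974 in chow WT. They detected 738 to 772, 695 to 726 and 481 to 547 microRNAs in the same groups. All chow WT libraries were thus shallower than all others, so depth cannot be told apart from the diet. Levels are given as normalised CPM, counts per 1000000 of a library total that was rescaled with TMM (trimmed mean of M values), or as deposited TPM, which is relative to the plain total. The choice matters. Plain totals in place of TMM shifted the median log2 fold change over the 414 microRNAs tested by -0.72 for HFD WT over chow WT. The shift was 0.29 for HFD Sirt3 AKI over HFD WT and -0.41 for HFD Sirt3 AKI over chow WT. Erythroid microRNAs took 46.7 to 55.5% of counts in HFD Sirt3 AKI, 54.2 to 56.3% in HFD WT and 38.7 to 41.0% in chow WT, and hepatocyte microRNAs took 0.943 to 3.68%, 0.672 to 0.741% and 1.71 to 2.07% in the same groups. The erythroid shares count the identical rows of both miR-486 copies; with such rows counted once they were 38.8 to 48.3% in HFD Sirt3 AKI, 47.1 to 49.7% in HFD WT and 33.6 to 35.6% in chow WT. HFD Sirt3 AKI replicate 2 stood apart on both, with the highest hepatocyte share of all 9 libraries (3.68%, against 0.943 and 1.48% in its group) and the lowest erythroid share on the diet (46.7%). The erythroid list holds miR-486, miR-451a, miR-144, miR-16-5p, miR-92a-3p and miR-25-3p, with miR-16-5p the most abundant. The hepatocyte list holds miR-122, miR-192-5p, miR-194-5p, miR-101a-3p and miR-455-3p. Whether these counts came from erythroid cells or hepatocytes was not tested. No microRNA of either list was at 0 in any group. Their part in the results below was not tested. The biological coefficient of variation, which edgeR estimates over all tested microRNAs, was 40.2% in HFD Sirt3 AKI, 14.0% in HFD WT and 10.4% in chow WT. The main edgeR fit nevertheless assumes the same spread in all groups for a given microRNA. Each comparison thus also draws its spread from the group left out of it. Whether the libraries came from separate animals is not stated, and p-values thus cover the spread between these libraries only, which may be technical.

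In every library miR-221-3p was the more abundant of the pair, and it was highest on chow. Replicates 1 to 3 of HFD Sirt3 AKI had 3868, 3168 and 3109 normalised CPM. In HFD WT it had 3216, 3135 and 2779 normalised CPM, and in chow WT 5565, 6023 and 6166. All 6 high fat diet libraries lay below all 3 chow libraries, while the HFD Sirt3 AKI and HFD WT libraries overlapped. Behind these levels were 5938 to 10733 counts per library in HFD Sirt3 AKI, 4186 to 5782 in HFD WT and 1845 to 2308 in chow WT. Ranked by counts, it was the 39th to the 48th most abundant microRNA in the HFD Sirt3 AKI libraries, the 46th to the 51st in HFD WT and the 23rd to the 25th in chow WT.

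The level of miR-222-3p was lower by an order of magnitude, and its group means followed another order in normalised CPM only. In deposited TPM it averaged 298 in HFD Sirt3 AKI, 168 in HFD WT and 355 in chow WT. The means of miR-221-3p had the same order on that scale (3296, 2396 and 7727). Replicates 1 to 3 of HFD Sirt3 AKI had 328, 280 and 309 normalised CPM. In HFD WT it had 210, 205 and 224 normalised CPM, and in chow WT 286, 232 and 297. HFD WT held the 3 lowest libraries, with no overlap with either of the other groups, and HFD Sirt3 AKI and chow WT overlapped. Counts per library were 530 to 911 in HFD Sirt3 AKI, 315 to 377 in HFD WT and 89 to 112 in chow WT.

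**Figure D1:**
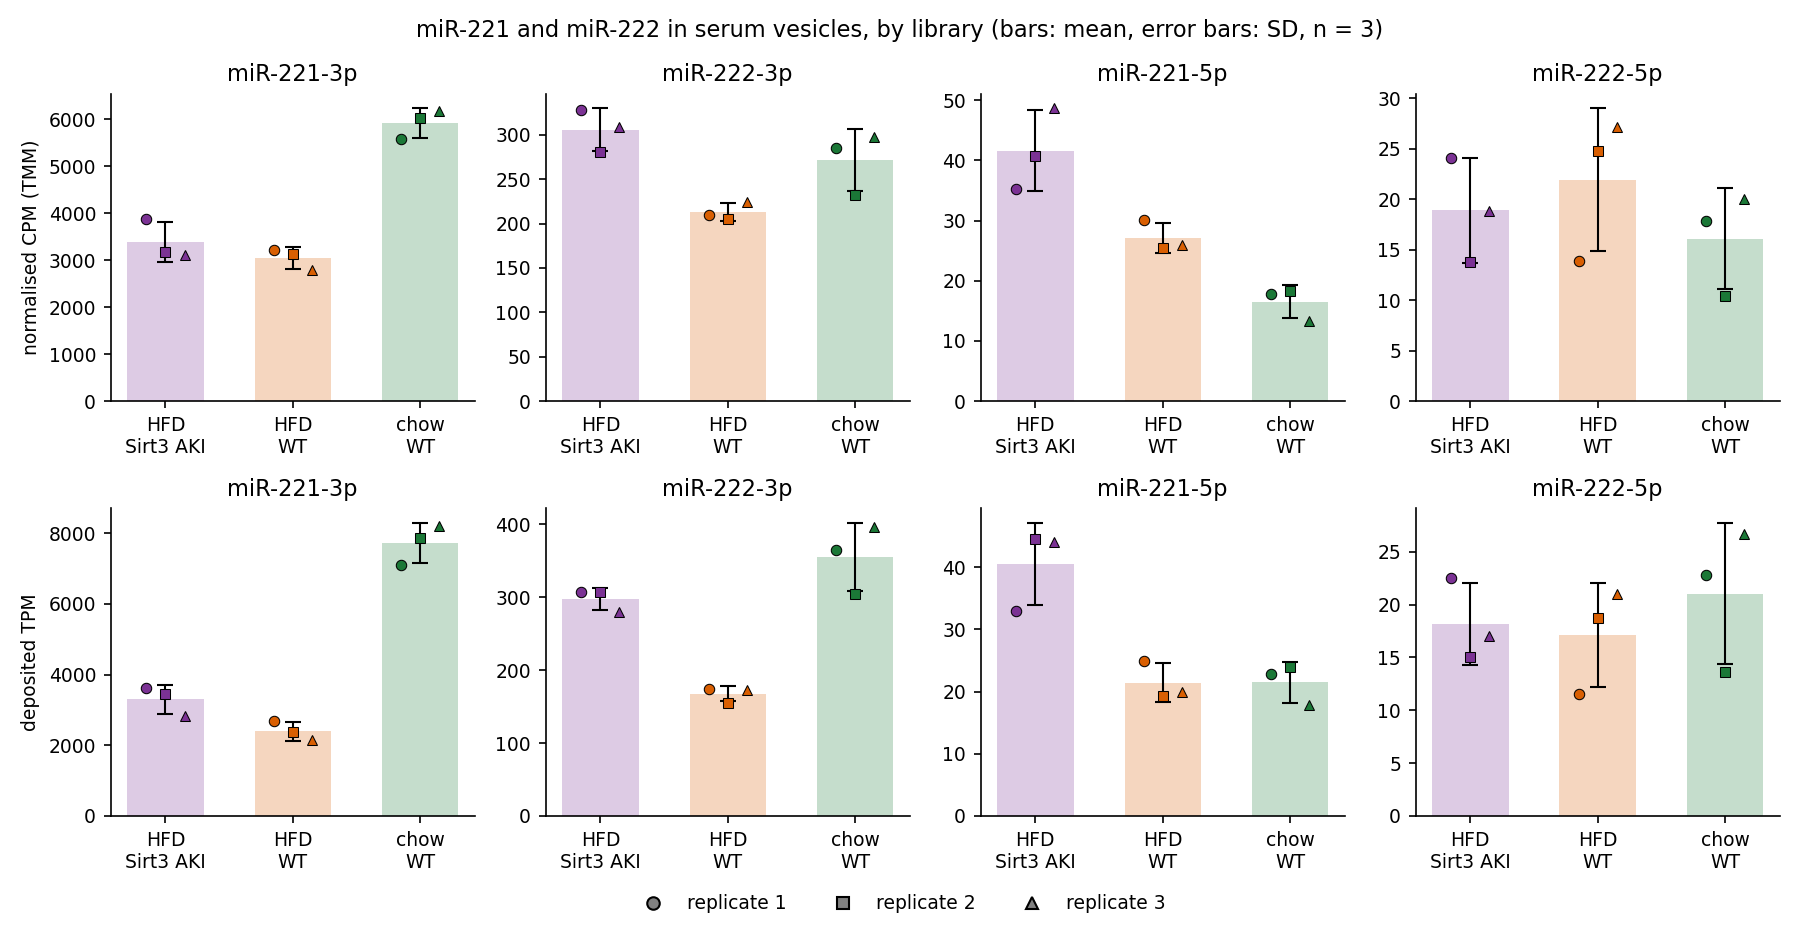
Levels of both 3p strands and both 5p strands by library, as normalised CPM (top) and deposited TPM (bottom), for HFD Sirt3 AKI, HFD WT and chow WT. Points are libraries (symbol: replicate), bars group means and error bars SD of 3. For miR-221-3p all 3 chow WT libraries stand above the rest on both scales, while for miR-222-3p HFD WT holds the lowest libraries on both.

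HFD WT was set against chow WT to address the diet. In this comparison miR-221-3p fell and miR-222-3p did not pass the test. The level of miR-221-3p averaged 3043 ± 233 normalised CPM in HFD WT and 5918 ± 314 in chow WT (SD, n = 3 each), and was thus 1.94-fold lower in HFD WT (log2 -0.96, SE 0.12, edgeR adjusted p = 1.18e-04). The level of miR-222-3p averaged 213 ± 10.004 normalised CPM in HFD WT and 272 ± 34.7 in chow WT (log2 -0.35, SE 0.15, edgeR adjusted p = 0.0931, unadjusted p = 0.0409). Of all 414 microRNAs tested, 37.7% were called in this comparison, 21.5% higher and 16.2% lower. The groups did not overlap for either member, as for 54.8% of all tested microRNAs (30.9% higher and 23.9% lower). A total of 69 of the 414 had a lower log2 fold change than miR-221-3p, and 133 a lower one than miR-222-3p.

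With plain library totals both fell in HFD WT, as did many others: on that scale 4.83% of the 414 tested were called higher and 34.5% lower. In deposited TPM, miR-221-3p averaged 2396 ± 267 in HFD WT and 7727 ± 560 in chow WT, and miR-222-3p averaged 168 ± 10.6 in HFD WT and 355 ± 46.8 in chow WT. With library totals the log2 fold changes were -1.69 (edgeR adjusted p = 7.56e-06) for miR-221-3p and -1.08 (edgeR adjusted p = 2.46e-04) for miR-222-3p. With totals that leave out the 10 erythroid microRNAs they were -1.26 (edgeR adjusted p = 2.86e-05) and -0.65 (edgeR adjusted p = 0.00710). A fit of only these 2 groups also called miR-222-3p lower (-0.42, edgeR adjusted p = 0.0258). Without a filter on low counts its value shrank to -0.14 (edgeR adjusted p = 0.846), and without HFD Sirt3 AKI replicate 2 to -0.23 (edgeR adjusted p = 0.260). All 6 libraries share one batch label.

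HFD Sirt3 AKI was set against HFD WT to address adipose Sirt3 under the diet. Here miR-222-3p was higher in HFD Sirt3 AKI, just inside the threshold, and miR-221-3p did not pass. The level of miR-222-3p averaged 306 ± 24.1 normalised CPM in HFD Sirt3 AKI and 213 ± 10.004 in HFD WT (SD, n = 3 each), and was thus 1.44-fold higher in HFD Sirt3 AKI (log2 0.52, SE 0.14, edgeR adjusted p = 0.0497). The level of miR-221-3p averaged 3382 ± 422 normalised CPM in HFD Sirt3 AKI and 3043 ± 233 in HFD WT (log2 0.15, SE 0.12, edgeR adjusted p = 0.460). Of the 414 tested, 8.94% were called in this comparison, 1.45% higher (6 microRNAs) and 7.49% lower. This balance turned with library totals, which called 36 higher (8.7%) and 11 lower (2.66%). It also moved with the test: DESeq2 size factors in edgeR called 10 higher and 14 lower, and DESeq2 itself 38 higher and 27 lower. The groups did not overlap for miR-222-3p, as for 26.1% of all tested (8.7% higher).

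The increase of miR-222-3p kept its direction under the 23 other settings and its call under 11 of them. The call held without HFD Sirt3 AKI replicate 2 (0.62, edgeR adjusted p = 0.0181). It was lost without any other single library, each chow WT library included, with adjusted p from 0.0611 without HFD Sirt3 AKI replicate 1 to 0.176 without HFD WT replicate 2. With the batch label as a term the log2 fold change was 0.62 (edgeR adjusted p = 0.205) for miR-222-3p and 0.35 (edgeR adjusted p = 0.380) for miR-221-3p. In the larger batch alone, where HFD Sirt3 AKI has a single library that is assumed to vary like the others, they were 0.76 (edgeR adjusted p = 0.0138) and 0.49 (edgeR adjusted p = 0.0381). With library totals they were 0.83 (edgeR adjusted p = 0.00993) and 0.46 (edgeR adjusted p = 0.0473), and in deposited TPM neither member's groups overlapped. How many of all tested did not overlap in TPM was not counted. Library totals raised the comparison as a whole, with a median log2 fold change of 0.27 over all tested, against -0.021 with TMM.

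HFD Sirt3 AKI and chow WT differ in both diet and genotype. Against chow WT, miR-221-3p was 1.75-fold lower in HFD Sirt3 AKI (log2 -0.81, SE 0.12, edgeR adjusted p = 3.83e-04), and its groups did not overlap. For miR-222-3p the log2 fold change was 0.17 (SE 0.15, edgeR adjusted p = 0.383), and its groups overlapped on both scales. Its value moved between -0.25 with library totals (edgeR adjusted p = 0.193), 0.39 without HFD Sirt3 AKI replicate 2 (edgeR adjusted p = 0.0744) and 0.48 in the larger batch alone (edgeR adjusted p = 0.0599). In this comparison 39.9% of the tested microRNAs were called, 20.3% higher and 19.6% lower, and 49.3% had groups without overlap (26.3% lower). With library totals 9.66% were called higher and 31.4% lower. The larger batch alone gave -0.41 (edgeR adjusted p = 0.0263) for miR-221-3p, and the batch term -0.61 (edgeR adjusted p = 0.0153). The 3 comparisons share groups pairwise, so their results for one microRNA are not independent.

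**Figure D2:**
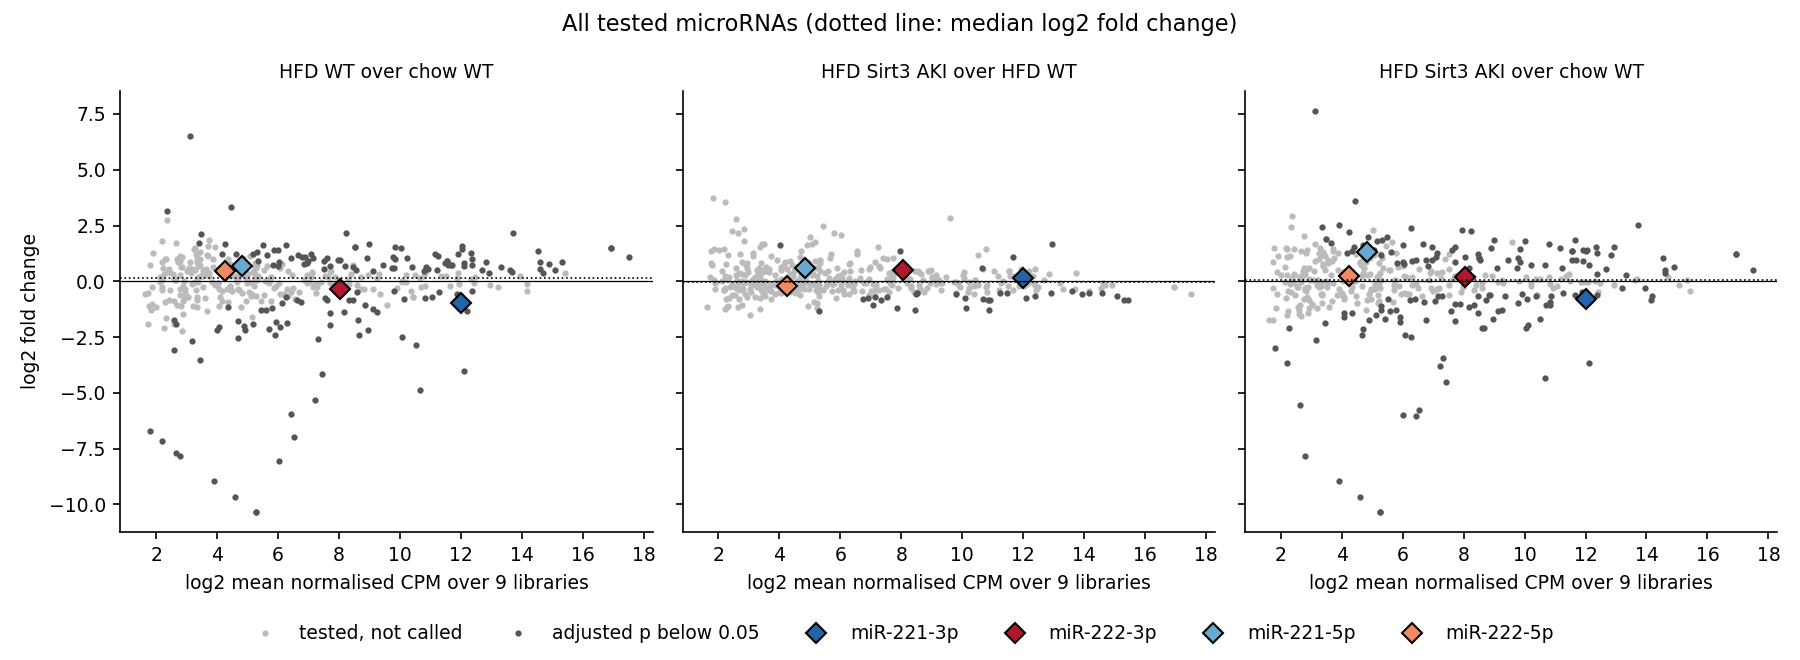
Log2 fold change (vertical) against the log2 mean normalised CPM over 9 libraries (horizontal) for the 414 tested microRNAs in each comparison, with dark points for an adjusted p below 0.05 and a dotted line at the median. Of the marked strands, miR-221-3p lies at -0.96, 0.15 and -0.81 and miR-222-3p at -0.35, 0.52 and 0.17, in the order of the panels.

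A ratio of both members inside a library needs no scaling. Since both have the same seed, the share of miR-222-3p describes the makeup of their common seed pool. That share was 7.82, 8.13 and 9.05% in HFD Sirt3 AKI replicates 1 to 3. It was 6.12, 6.14 and 7.47% in HFD WT and 4.88, 3.71 and 4.60% in chow WT. The 3 groups did not overlap, with the highest share in HFD Sirt3 AKI and the lowest in chow WT. The 95% Clopper-Pearson intervals, which cover counting error only, ran from 7.34 to 9.77% over the HFD Sirt3 AKI libraries, from 5.50 to 8.28% over HFD WT and from 2.99 to 5.85% over chow WT. Counting error alone therefore leaves HFD Sirt3 AKI clear of chow WT, while the intervals of HFD WT libraries reach into those of both other groups.

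As a fold, miR-221-3p exceeded miR-222-3p 11.04 ± 0.895 times in HFD Sirt3 AKI, 14.3 ± 1.69 times in HFD WT and 22.05 ± 3.42 times in chow WT (SD, n = 3 each). The mean log2 ratio of miR-221-3p to miR-222-3p was 3.83 ± 0.18 in HFD WT and 4.44 ± 0.22 in chow WT, a difference of -0.61 (two-sided exact permutation p = 0.1, n = 3 each). For HFD Sirt3 AKI it was 3.46 ± 0.12, a difference of -0.37 from HFD WT and of -0.98 from chow WT (exact permutation p = 0.1 each). With 3 libraries against 3 no exact p can go below 0.1, and adjusted over the 9 ratio tests made these p-values were 0.18. The larger batch alone gave -0.61 for HFD WT over chow WT, all of whose libraries it holds, and -0.27 and -0.89 for the single HFD Sirt3 AKI library over HFD WT and over chow WT.

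Many other neighbouring microRNAs changed their ratios as well. The background was 53 pairs of neighbouring hairpins on one strand, at most 10000 bases apart, with Mir221/Mir222 itself included. The log2 ratio of the more to the less abundant did not overlap between HFD WT and chow WT in 34.0% of them. It did not overlap between HFD Sirt3 AKI and HFD WT in 17.0%, and between HFD Sirt3 AKI and chow WT in 34.0%. This set of pairs was drawn up after the ratios of miR-221 and miR-222 had been seen. The median absolute difference in HFD WT over chow WT was 0.62, against 0.61 for miR-221-3p to miR-222-3p, and 27 pairs had a larger one. The median was 0.40 for HFD Sirt3 AKI over HFD WT, against 0.37, with 30 pairs larger. It was 0.50 for HFD Sirt3 AKI over chow WT, against 0.98, with 17 pairs larger. The smallest count in a library was 89 for miR-221-3p to miR-222-3p, but far lower in many pairs with a larger difference. In HFD WT over chow WT these include Mir337/Mir540 (3.75, smallest count 0) and Mir500/Mir501 (2.72, smallest count 6). Better counted pairs with a larger difference include Mir429/Mir200a (2.01, smallest count 218) and Mir144/Mir451a (1.15, smallest count 581). Some pairs also set a main strand against a minor one, such as miR-29a-3p to miR-29b-1-5p, while miR-221-3p and miR-222-3p are both main strands. The set is thus an uneven background for a pair of this depth and strand type.

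**Figure D3:**
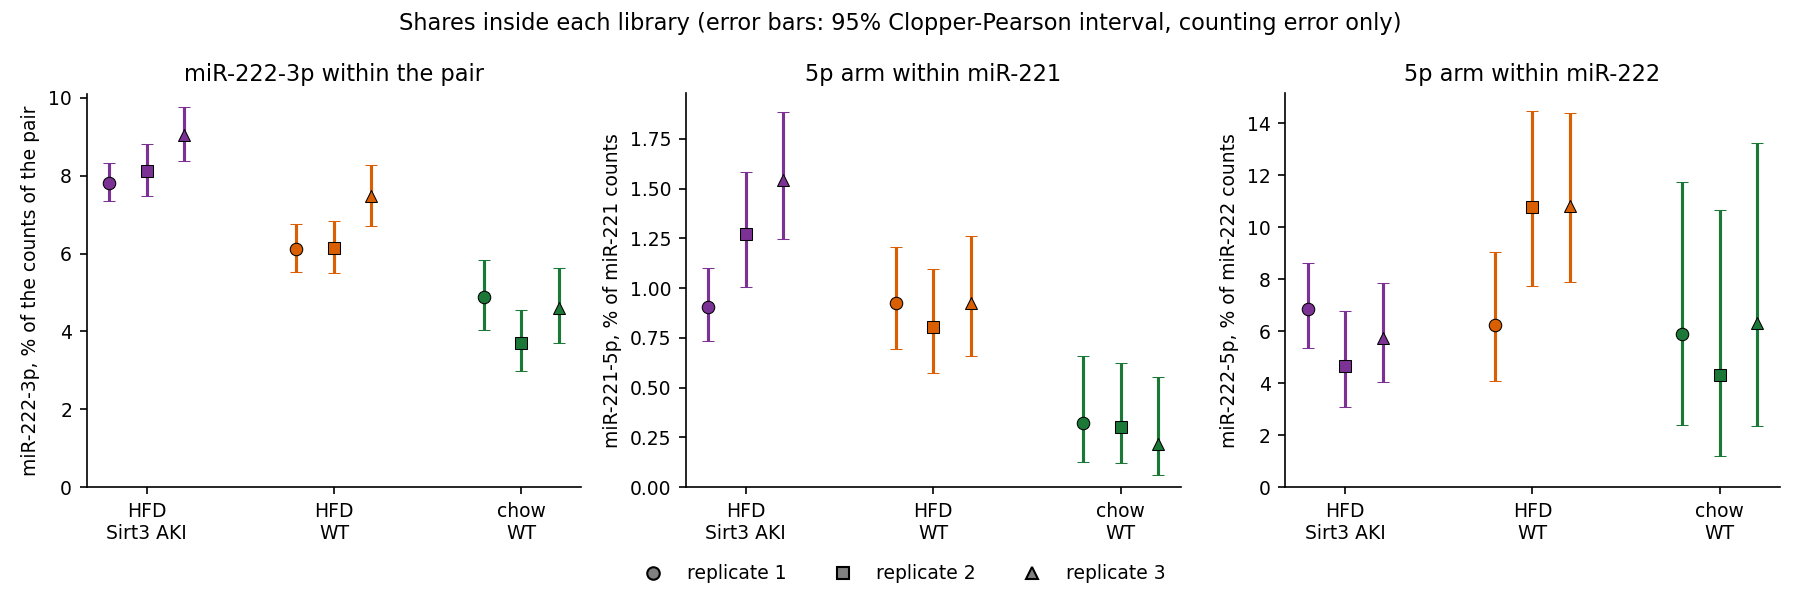
Share of miR-222-3p in the counts of the pair (left), of the 5p strand in miR-221 (middle) and of the 5p strand in miR-222 (right), in percent, by library in HFD Sirt3 AKI, HFD WT and chow WT. Error bars are 95% Clopper-Pearson intervals of counting error, and the left panel falls into 3 groups without overlap of the points, 7.82 to 9.05%, 6.12 to 7.47% and 3.71 to 4.88%.

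The 5p strands, the minor products of the same hairpins, were scarce. For miR-221-5p, HFD Sirt3 AKI had 35.3, 40.7 and 48.7 normalised CPM. In HFD WT it had 30.0, 25.4 and 25.9, and in chow WT 17.9, 18.3 and 13.4 normalised CPM. The order of the groups is the reverse of that for miR-221-3p between either high fat diet group and chow WT, with no overlap on this scale. Over all tested, groups did not overlap for 54.8% in HFD WT over chow WT (30.9% higher). In HFD Sirt3 AKI over chow WT the share was 49.3% (22.9% higher). In deposited TPM miR-221-5p averaged 21.4 ± 3.13 in HFD WT and 21.5 ± 3.26 in chow WT (SD, n = 3 each), with overlap. It rose in HFD Sirt3 AKI over chow WT (log2 fold change 1.31, SE 0.29, edgeR adjusted p = 0.00425), and by 0.90 with library totals (edgeR adjusted p = 0.0280). The call was lost with the batch label as a term (1.08, edgeR adjusted p = 0.0577) and with limma on log2(TPM + 1) without a filter (0.88, limma adjusted p = 0.0565). In HFD WT over chow WT its log2 fold change was 0.70 (SE 0.30, edgeR adjusted p = 0.0899), but -0.018 with library totals. HFD Sirt3 AKI over HFD WT gave 0.61 (SE 0.24, edgeR adjusted p = 0.136), and 0.92 with library totals (edgeR adjusted p = 0.0350). Chow WT libraries held only 7, 7 and 4 counts of it, so its level there is imprecise.

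The share of the 5p strand in the counts of miR-221 was 0.905, 1.27 and 1.54% in HFD Sirt3 AKI, 0.925, 0.804 and 0.923% in HFD WT and 0.320, 0.302 and 0.216% in chow WT. Chow WT lay below all other libraries, and the high fat diet groups overlapped. The 95% Clopper-Pearson intervals reached up to 0.658% in chow WT and down to 0.572% in HFD WT, so at the level of single libraries counting error could join them. The mean log2 ratio of the 3p to the 5p strand was 6.80 ± 0.12 in HFD WT and 8.38 ± 0.27 in chow WT, a difference of -1.58 (exact permutation p = 0.1, n = 3 each). For HFD Sirt3 AKI it was 6.34 ± 0.39, a difference of -2.03 from chow WT (exact permutation p = 0.1) and of -0.45 from HFD WT (exact permutation p = 0.3). The difference from HFD WT was -0.027 in the larger batch alone, -0.28 without HFD Sirt3 AKI replicate 3 and -0.66 without HFD Sirt3 AKI replicate 1. The background here was 81 hairpins with both strands tested, Mir221 itself included, also a set drawn up after these ratios had been seen. This ratio did not overlap between HFD WT and chow WT in 46.9% of them. It did not overlap between HFD Sirt3 AKI and HFD WT in 28.4% and between HFD Sirt3 AKI and chow WT in 50.6%. A total of 14 hairpins had a larger absolute difference than miR-221 in HFD WT over chow WT, and 8 in HFD Sirt3 AKI over chow WT.

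For miR-222-5p no difference was detectable at this depth. It had 24.1, 13.8 and 18.8 normalised CPM in HFD Sirt3 AKI, 13.9, 24.8 and 27.2 in HFD WT and 17.9, 10.4 and 20.1 in chow WT, and the 3 groups overlapped. Counts in chow WT were 4 to 7 per library. None of the comparisons passed the test (edgeR adjusted p from 0.459 to 0.761, unadjusted p from 0.310 to 0.580, and none called by DESeq2). Its share of miR-222 counts averaged 5.76 ± 1.09% in HFD Sirt3 AKI, 9.27 ± 2.64% in HFD WT and 5.50 ± 1.06% in chow WT (SD, n = 3 each). The 3p to 5p ratio of miR-222 gave exact permutation p = 0.2, 0.2 and 0.9 for HFD WT over chow WT, HFD Sirt3 AKI over HFD WT and HFD Sirt3 AKI over chow WT (n = 3 each).

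**Figure D4:**
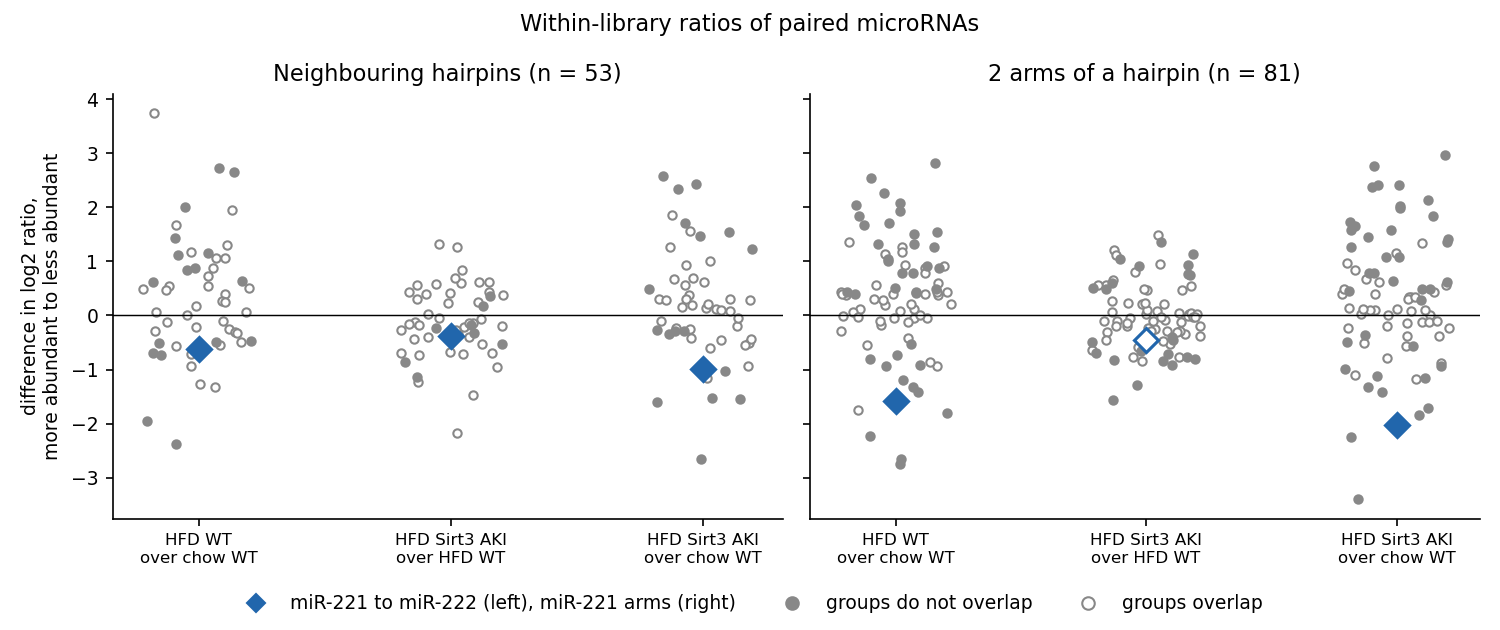
Difference between groups in the mean log2 ratio of the more to the less abundant strand, for 53 pairs of neighbouring hairpins (left) and 81 hairpins with both strands tested (right), with filled symbols where the groups do not overlap. The pair miR-221-3p to miR-222-3p lies at -0.61, -0.37 and -0.98 in the 3 comparisons, inside the range of the other pairs, and the strands of miR-221 at -1.58, -0.45 and -2.03.

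Likeness of pattern was measured as the root mean square difference between log2 normalised CPM values, each centred on its own mean over the 9 libraries. The 5 tested microRNAs nearest to miR-221-3p were miR-125b-2-3p, miR-10a-5p, miR-181b-5p, miR-181c-3p and miR-324-5p, at 0.20 to 0.24. Of these miR-10a-5p, a Hox cluster microRNA of similar abundance, averaged 3429 ± 269 normalised CPM in HFD Sirt3 AKI, 3208 ± 142 in HFD WT and 4709 ± 196 in chow WT (SD, n = 3 each). It fell in HFD WT over chow WT (log2 -0.55, edgeR adjusted p = 0.00182). The lymphocyte microRNA miR-181b-5p fell by 1.05 on the log2 scale in the same comparison (edgeR adjusted p = 3.67e-04). The partner miR-222-3p was the 66th nearest, at 0.43, against a median of 0.80 over all tested.

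The 5 nearest to miR-222-3p were miR-10b-5p, miR-100-5p, miR-326-3p, miR-200c-3p and miR-181d-5p, at 0.20 to 0.24, and miR-221-3p was the 60th nearest. None of these 5 passed the test in HFD Sirt3 AKI over HFD WT. The log2 fold change of miR-181d-5p there was 0.69 (edgeR adjusted p = 0.0655), that of miR-100-5p 0.41 (edgeR adjusted p = 0.110), and that of the epithelial miR-200c-3p 0.31 (edgeR adjusted p = 0.172).

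MicroRNAs of similar abundance moved in both directions. By mean level over the 9 libraries miR-221-3p stood 37th of the 414 tested, next to let-7d-5p, the myeloid and platelet miR-223-3p and the inflammation-induced miR-146a-5p above it, and miR-10b-5p, the stromal miR-143-3p and the lymphocyte miR-342-3p below it. In HFD WT over chow WT 4 of these 6 rose, with log2 fold changes of 1.59 for miR-223-3p, 1.45 for miR-146a-5p, 1.23 for miR-342-3p and 0.71 for let-7d-5p, and the other 2 did not pass. Around miR-222-3p, which stood 123rd, miR-503-5p, miR-676-3p and the islet miR-375-3p rose, miR-181c-5p and miR-200c-3p fell, and miR-340-5p did not pass. Over all tested 21.5% were called higher and 16.2% lower in this comparison. These changes are with TMM, and plain totals shifted the median log2 fold change here by -0.72, about the size of the let-7d-5p rise. Of these 12 neighbours in level, miR-375-3p was the one that rose in HFD Sirt3 AKI over HFD WT (1.36, edgeR adjusted p = 0.00559), and let-7d-5p fell (-0.73, edgeR adjusted p = 0.00473). There 1.45% of all tested were called higher and 7.49% lower.

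Against microRNAs of the tissues in which the pair is studied, the decrease of miR-221-3p on the diet stood beside mixed changes. Of 25 obesity and adipose microRNAs, all tested, 7 rose and 6 fell in HFD WT over chow WT, with a median log2 fold change of 0.26 against 0.15 over all tested. Over all tested, 21.5% were called higher and 16.2% lower, which holds as background for each list in this comparison. With library totals 1 rose and 12 fell, with a median of -0.47 against -0.57 and a background of 4.83% higher and 34.5% lower. The most abundant of them, the profibrotic miR-21a-5p, rose by 0.79 with TMM, and miR-103-3p, a regulator of insulin sensitivity, rose by 0.63. The next most abundant, miR-26a-5p, had a log2 fold change of -0.24 and did not pass (edgeR adjusted p = 0.0764). Of 17 microRNAs of the vascular wall, where both members are expressed, 5 rose and 2 fell (median 0.26). The endothelial miR-126a-3p averaged 33004 ± 585 normalised CPM in HFD WT and 18113 ± 1214 in chow WT (SD, n = 3 each), and rose by 0.87 (edgeR adjusted p = 3.14e-05). With library totals 1 of the 17 rose and 7 fell.

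Of 11 leukocyte and platelet microRNAs 7 rose and 3 fell in HFD WT over chow WT (median 0.39), against 21.5% and 16.2% over all tested. With library totals 4 rose and 6 fell, against 4.83% and 34.5%. Erythroid microRNAs rose in 7 of 10 cases and fell in 1 (median 1.42), with 6 and 1 with library totals. The list holds both copies of miR-486, whose rows have identical counts in every library. With such rows counted once, 5 of 8 rose and 1 fell (median 1.23), with 4 and 1 with library totals. Of 6 hepatocyte microRNAs none rose and 1 fell, miR-192-5p (-1.33, edgeR adjusted p = 1.13e-04; median -0.52). With library totals 3 hepatocyte microRNAs fell. The defining hepatocyte microRNA, miR-122-5p, had a log2 fold change of -0.16 (edgeR adjusted p = 0.813).

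In HFD Sirt3 AKI over HFD WT, where miR-222-3p was called higher, no member of the obesity and adipose list rose and 1 fell (median 0.15 against -0.021 over all tested). Over all tested only 1.45% were called higher and 7.49% lower with TMM, which holds as background for each list in this comparison. In the vascular wall list none rose, and both strands of miR-126a fell (miR-126a-3p by 0.51, edgeR adjusted p = 0.00635, and miR-126a-5p by 0.68, edgeR adjusted p = 0.00473). No leukocyte and platelet microRNA rose and 1 fell, miR-142a-3p (-0.50, edgeR adjusted p = 0.0195). Of the erythroid list none rose and 5 fell (4 of 8 with identical rows counted once), and of the hepatocyte list miR-122-5p rose (1.68, edgeR adjusted p = 0.0412), with 14287 ± 10482 normalised CPM in HFD Sirt3 AKI and 4470 ± 308 in HFD WT (SD, n = 3 each). With library totals no member of these lists fell, apart from 2 of the erythroid list. On that scale 1, 1, 4, 1 and 2 members of the obesity and adipose, vascular wall, leukocyte and platelet, erythroid and hepatocyte lists rose, against 8.7% higher and 2.66% lower over all tested. Set against chow WT, HFD Sirt3 AKI had 8 of the 25 obesity and adipose microRNAs higher and 8 lower, and 6 of the 17 of the vascular wall rose and 2 fell, against 20.3% and 19.6% over all tested. With library totals 3 rose and 11 fell, and 1 rose and 3 fell, against 9.66% and 31.4%.

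**Figure D5:**
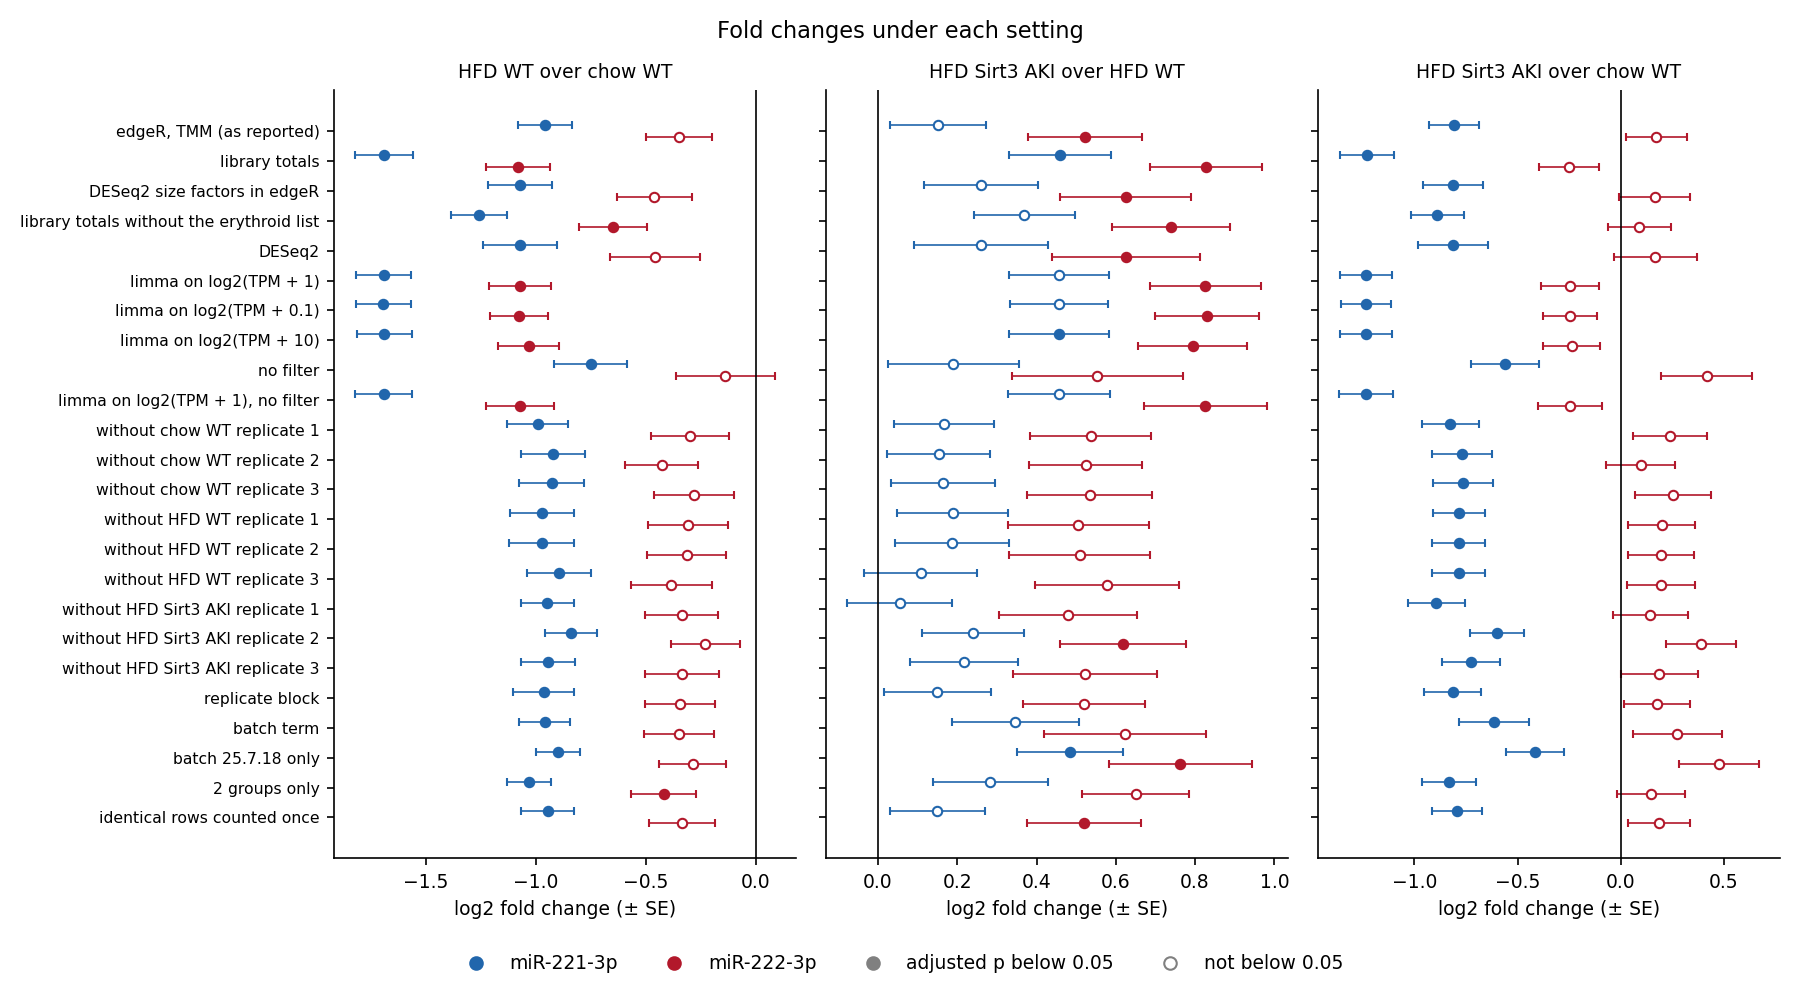
Log2 fold changes (horizontal, ± SE) of miR-221-3p and miR-222-3p in the 3 comparisons under each setting (rows), with filled points where the adjusted p was below 0.05. In HFD WT over chow WT miR-221-3p was called lower in every row shown, from -1.69 to -0.75, while miR-222-3p in HFD Sirt3 AKI over HFD WT stayed above 0 throughout, from 0.48 to 0.83, with calls in part of the rows.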

How the data were processed

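Serum was treated with an exosome precipitation reagent, and the pellet was used for Illumina libraries, per the labels' protocols. The submitters' processing notes name Bowtie 0.12.2 and build mm8 without their roles. The sources used here do not give trimming, the microRNA reference or the counting program. The deposited tables hold read counts per mature microRNA and TPM, which the authors computed as the count per 1000000 of the library total (largest difference 5.00e-05). The known and predicted TPM tables repeat the full one.

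Counts were filtered with filterByExpr (minimum count 10), which left 414 of 1169 microRNAs, and tested over all 9 libraries with group means by edgeR 4.0.16 quasi-likelihood in R 4.3.3 after TMM scaling. A call is a Benjamini-Hochberg adjusted p below 0.05 over all tested. Ratios within a library used counts plus 0.5 and two-sided exact permutation tests (scipy 1.17.1). Alternatives used limma 3.58.1 on log2 TPM, DESeq2 1.42.0, other scalings, batch, block and filter settings and single libraries left out. The steps were tested on simulated data. Members, lists and named microRNAs (the pair, its 5p strands, 5 nearest patterns, 3 neighbours in level on each side, the most abundant of each list) were chosen with earlier results of these data known. Counting identical rows once in the lists was chosen after seeing the data. A few other list members that were called are named as well, after their values were seen. Reads carry no molecular identifiers in the sources used here, so intervals cover counting error only.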

Additional observations from a re-analysis of the deposited data

How the results depend on the processing

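The decrease of miR-221-3p relative to chow WT, in HFD WT as in HFD Sirt3 AKI, was called under all 23 alternatives, from -1.69 to -0.75 and from -1.23 to -0.41. In HFD Sirt3 AKI over HFD WT it became a call with library totals (0.46), limma on log2(TPM + 10) (0.46) and in the larger batch (0.49), and was 0.055 to 0.24 without single libraries. In HFD WT over chow WT miR-222-3p became a call with library totals (-1.08), totals without erythroid microRNAs (-0.65), limma on log2 TPM plus 1, 0.1 or 10 (-1.07, -1.07 and -1.03), plus 1 without a filter (-1.07) and with 2 groups only (-0.42), while it shrank to -0.14 without a filter and -0.23 without HFD Sirt3 AKI replicate 2. In HFD Sirt3 AKI over HFD WT its call was lost without a filter (0.55), with a batch term (0.62), with 2 groups only (0.65) and with the replicate block (0.52, edgeR adjusted p = 0.0700), and lay between 0.48 and 0.62 without single libraries. In HFD Sirt3 AKI over chow WT its uncalled value turned to -0.25 with library totals and -0.24, -0.25 and -0.24 with limma on TPM plus 1, 0.1 and 10 (-0.24 without a filter). The uncalled 3p to 5p difference of miR-222 there, 0.031, turned to -0.072 with no count added and -0.25 in the larger batch, and ran from -0.11 to 0.19 without single libraries. The causes were not tested. The other ratio differences kept their sign under all 10 of their alternatives, but that of miR-221 strands in HFD Sirt3 AKI over HFD WT, -0.45, shrank to -0.027 in the larger batch. The counts of all called microRNAs were 116 to 188 in HFD WT over chow WT, 1 (batch term) to 102 (without HFD Sirt3 AKI replicate 1) in HFD Sirt3 AKI over HFD WT, against 37, and 124 to 189 in HFD Sirt3 AKI over chow WT. Replicate numbers are shared between groups but the labels give them no common source, and same-numbered libraries deviated together with correlations of -0.063 to 0.165. The block changed no other call of the pair. The 4 to 7 counts of each 5p strand per chow WT library limit every statement on the 5p strands.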
